A study of Mus musculus with 2 samples.

Results

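The miR-34 and miR-449 family was represented by 6 miRNAs, mmu-miR-34a-5p, mmu-miR-34b-5p, mmu-miR-34b-3p, mmu-miR-34c-5p, mmu-miR-34c-3p and mmu-miR-449a-5p, out of 1881 mouse miRNAs on the array. The prefix mmu marks mouse names. They were picked out by name, with earlier results of these data known, and each had 2 probes, 12 of the 4415 miRNA probes in all. The RNA came from exosomes, small secreted vesicles, collected from medium of the Lewis lung carcinoma line (LLC), which derives from a mouse lung tumour. Before collection the cells spent 24 h without serum and with cisplatin, a DNA-crosslinking platinum compound, at 5 µM. Both samples belonged to 1 group, came from independent experiments and were each hybridised to a one-colour array, and all RNA came from a single cell line under drug. No untreated exosomes were analysed here, so the arrays show which arms of which loci gave a signal and how repeatable it was, not what cisplatin changed. With 2 arrays the precision of every value is limited, and no test between conditions was possible.

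In mammals the miR-34 genes are direct transcriptional targets of p53, the transcription factor that DNA damage activates. Their 5p arms repress mRNAs of cell cycle and survival genes such as Ccnd1, Cdk6, Met and Bcl2. miR-34a has a gene of its own, miR-34b and miR-34c are processed from a shared transcript, and the miR-449 miRNAs lie in an intron of Cdc20b and share the miR-34 seed. The miR-34b/c and miR-449 loci are known for their high expression in multiciliated epithelium, the airway included, and in testis.

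The mature sequences show the seed that 5p arms of the family share and the other seed of the 3p arms. They are RefSeq sequences on GRCm38.p6, 5′ to 3′, and capitals mark the seed, bases 2 to 8, by which a miRNA pairs with its targets.
miR-34a-5p: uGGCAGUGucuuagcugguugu
miR-34b-5p: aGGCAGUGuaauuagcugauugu
miR-449a-5p: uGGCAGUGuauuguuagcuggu
miR-449c-5p: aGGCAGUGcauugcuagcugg
miR-34b-3p: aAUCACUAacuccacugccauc
miR-34c-3p: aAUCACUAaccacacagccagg
The first seed was carried by 4 of the 1679 mature names in that table, all 4 on the array, and of these miR-449c-5p was the one that is not a member. miR-34c-5p and miR-449b are named only, and this count does not cover them. The second seed was carried by miR-34b-3p and miR-34c-3p and no other name in the table. Aligned base by base from the 5′ end, miR-34a-5p and miR-449a-5p matched at 15 of 22 positions, and miR-34a-5p and miR-34b-5p at 11 of 22. The 3p arms of miR-34b and miR-34c matched at 17 of 22. The pair miR-34b-5p and miR-34c-5p was not aligned, because that table holds no sequence for miR-34c-5p. Probe sequences were not used here, so whether a probe also bound a relative was not tested. Whether the signals of miR-34b-5p and miR-34c-5p are independent of each other was therefore not tested either.

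The hairpins place the arms side by side, with the mature arms in capitals and the 5p arm first.
Mir34b: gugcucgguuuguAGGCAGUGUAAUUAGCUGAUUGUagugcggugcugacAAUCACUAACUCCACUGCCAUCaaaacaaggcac
Mir34a: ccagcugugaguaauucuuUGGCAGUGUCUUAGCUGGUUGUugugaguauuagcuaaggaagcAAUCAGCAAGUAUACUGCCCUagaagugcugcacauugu
Mir449a: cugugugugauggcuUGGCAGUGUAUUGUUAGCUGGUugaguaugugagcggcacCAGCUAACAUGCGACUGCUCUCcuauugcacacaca
Mir34b lies on the minus strand at chr9:51103562-51103645, and Mir34c at chr9:51103034-51103110, with 451 bases between them. Both fall inside the spans that RefSeq gives for Hoatz and Btg4. Mir34a lies on the plus strand at chr4:150068454-150068555, within no other gene's span. Mir449a lies on the plus strand at chr13:113037534-113037624, inside the span of Cdc20b, with Mir449b 35 bases and Mir449c 1442 bases before it. The table used here does not say whether the hairpins are exonic or intronic.

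Signal came from the 5p arms of the miR-34b/c locus. The detection flag of the scanner files, set where at least 1 probe's total signal exceeds 3 times its error, was present on both arrays for miR-34b-5p and miR-34c-5p, that is for 2 of the 6 members. Over all miRNAs the same flag was present on both arrays for 10.7%. mmu-miR-449a-5p was flagged on array 1 only, where 16.6% of all miRNAs were. mmu-miR-34a-5p, miR-34b-3p and miR-34c-3p were flagged on neither array. Detection on at least 1 array took in 3 members, these 2 and miR-449a-5p, beside 16.6% of all miRNAs. Stricter rules on both arrays called 1 or 2 members. With a listed total over 6 times its error on both arrays the members were again mmu-miR-34b-5p and mmu-miR-34c-5p, beside 7.92% of all miRNAs. Listed totals can exceed the signal of a miRNA's own detected probes, as given below, so this rule and its share are uncertain. For miR-34c-5p on array 2 the second probe alone stood at 8.25 times its error. With a mean intensity over the negative-control limit the members were the same 2, beside 8.72%. With most spots well above background on both arrays mmu-miR-34b-5p alone remained, beside 4.68%. miR-34c-5p fell just short of that rule, with 15 of 30 spots so flagged on array 2. These were 0 of 15 for its first probe and 15 of 15 for its second. With 6 members, several of them from the same locus, these counts do not set the family apart from the rest of the array.

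mmu-miR-34b-5p stood clear of the background on both arrays. Its first probe had a processed intensity of 58.9 ± 3.81 on array 1 (SD, 15 spots, range 50.7 to 65.0) and of 13.7 ± 3.82 on array 2 (SD, 15 spots, range 9.0 to 19.7). Its second probe had 123.3 ± 7.58 on array 1 (SD, 15 spots, range 109.8 to 135.0) and 33.3 ± 2.77 on array 2 (SD, 14 spots, range 29.3 to 39.5). The limit set by the negative-control spots, their mean plus 3 SD, was 7.44 on array 1 and 9.27 on array 2. All 30 spots lay over it on array 1 and 28 of 29 did on array 2, whereas 15.6% and 8.73% of all miRNA spots did so on the 2 arrays. The mean over probes and spots was 6.41 on array 1 and 4.39 on array 2 on the unscaled log2 scale. After the arrays were scaled to a common 75th percentile the mean was 5.40 ± 0.22 (SD, n = 2), and without scaling the SD was 1.43. Its levels lay near the percentiles used, 6.29 on array 1 and 4.58 on array 2, so the scaled SD partly reflects the scaling.

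mmu-miR-34c-5p, the partner from the same transcript, gave a like signal that rested more on 1 probe. Its first probe had an intensity of 30.1 ± 3.78 on array 1 (SD, 15 spots, range 23.5 to 36.0) and of 9.15 ± 2.80 on array 2 (SD, 15 spots, range 4.09 to 12.9). Its second probe had 153.3 ± 8.95 on array 1 (SD, 14 spots, range 137.9 to 169.6) and 42.6 ± 3.37 on array 2 (SD, 15 spots, range 36.6 to 50.1). The spots of the first probe on array 2 fell on either side of the negative-control limit, 9 of 15 over it, and that probe's total was 2.99 times its error, just short of the threshold of 3. All 29 spots lay over the limit on array 1, and 24 of 30 on array 2. Unscaled log2 signals were 6.08 and 4.26 on arrays 1 and 2, with an SD of 1.28. The scaled mean was 5.17 ± 0.07 (SD, n = 2), where the scaling again narrows the SD of a level near its percentiles.

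The scaled signals of miR-34b-5p and miR-34c-5p do not rank their amounts. The probes of miR-34c-5p differed more from each other than their mean did between the arrays. The unscaled log2 levels on array 1 were 4.90 for its first probe and 7.26 for its second, and those of miR-34b-5p were 5.88 and 6.94. By the brightest probe the scaled mean was 6.0 for miR-34b-5p and 6.33 for miR-34c-5p, the opposite order to the mean over probes. Brightness depends on the probe, and the files hold no calibration for it.

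**Figure D1:**
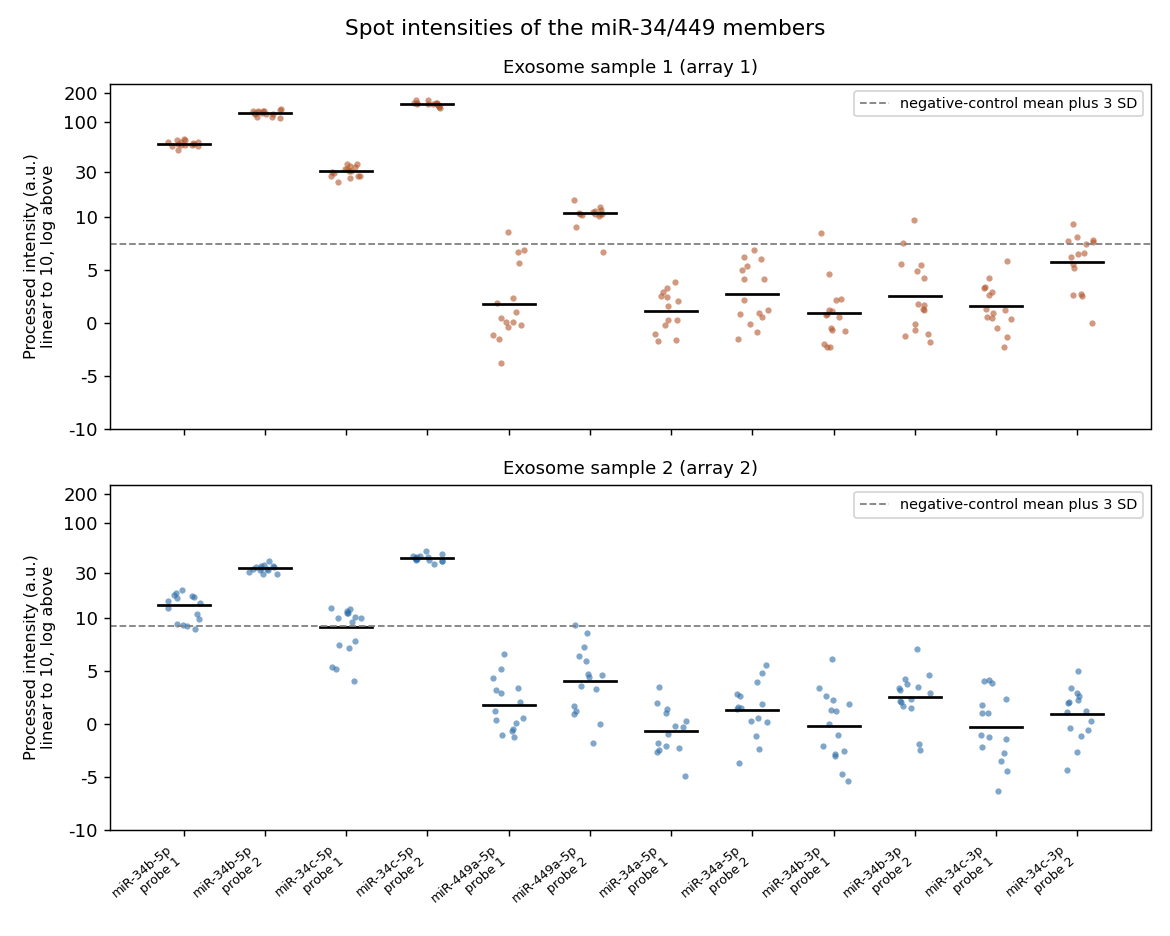
Processed intensity (arbitrary units, linear to 10 and logarithmic above) of every spot of the 12 member probes, array 1 above and array 2 below, with the mean of each probe as a black bar and the negative-control mean plus 3 SD as a dashed line (7.44 on array 1, 9.27 on array 2). Both probes of miR-34b-5p and the second of miR-34c-5p lie over the line on both arrays by their means, the first probe of miR-34c-5p straddles it on array 2, and the second probe of miR-449a-5p lies over it by its mean on array 1 alone.

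The 3p arms of the same hairpins gave little or no signal over background. mmu-miR-34b-3p had probe means of 0.92 and 2.58 on array 1 and of -0.17 and 2.55 on array 2, where the negative controls averaged 0.45 ± 2.33 on array 1 (SD, 995 spots) and 1.30 ± 2.66 on array 2 (SD, 990 spots). Of its spots, 3 of 30 lay over the negative-control limit on array 1 and 0 of 30 on array 2. Of the negative-control spots themselves 0.201% lay over it on array 1 and 0.303% on array 2. On the unscaled log2 scale it stood at 0.86 and 0.98 on arrays 1 and 2.

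mmu-miR-34c-3p was less uniform. Its first probe averaged 1.56 on array 1 and -0.27 on array 2. Its second probe averaged 5.76 ± 2.64 on array 1 (SD, 15 spots), with 6 of 15 spots over the limit, and 0.95 ± 2.43 on array 2 (SD, 15 spots), with 0 of 15 over it. That probe's total was 2.01 times its error on array 1 and 0.33 times on array 2, short of detection on either. Its unscaled log2 level was 2.35 on array 1 and 0.73 on array 2, a difference of 1.62. A weak signal of this arm on array 1 is therefore not excluded. The hairpins of the miR-34b/c locus were thus seen by their 5p arms alone under the detection flag. For an undetected arm the arrays give only a limit, and the size of the gap between the arms was not estimated.

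mmu-miR-34a-5p, the family member from the separate locus on chromosome 4, was at background on both arrays. Its probe means were 1.13 and 2.75 on array 1 and -0.66 and 1.36 on array 2. None of its spots, 28 on array 1 and 29 on array 2, lay over the negative-control limit. Its highest spot was 6.88 on array 1 and 5.60 on array 2. The largest total of either probe was 0.97 times its error. Its passenger arm miR-34a-3p, not a member, stood at 0.22 and 0.51 on arrays 1 and 2 on the unscaled log2 scale.

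mmu-miR-449a-5p, which shares its seed with miR-34a-5p and miR-34b-5p, gave a signal by 1 probe on array 1. The second probe averaged 10.9 ± 1.84 on array 1 (SD, 14 spots, range 6.69 to 15.1) and 4.04 ± 3.19 on array 2 (SD, 15 spots, range -1.78 to 9.37). On array 1, 13 of its 14 spots lay over the negative-control limit, and on array 2 1 of 15 did. The first probe stayed at 1.80 ± 3.57 on array 1 and 1.79 ± 2.42 on array 2 (SD, 15 spots each), near the negative controls. The second probe's total was 3.63 times its error on array 1 and 1.37 times on array 2. Of its spots, 1 was flagged well above background on array 1 and 0 on array 2.

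The rest of the family on the array was undetected. miR-34a-3p, miR-449a-3p, miR-449b, miR-449c-5p and miR-449c-3p together had 14 probes, and the largest total was 1.03 times its error on array 1 and 1.06 times on array 2. On array 1, 1 of 145 spots lay over the negative-control limit, and on array 2 0 of 149 did. miR-449c-5p, which carries the family seed printed above, stood at 0.09 and 0.25 on arrays 1 and 2 on that scale. Over all 11 names of the family on the array, detection on both arrays was therefore 2 of 11, beside 10.7% of all miRNAs.

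**Figure D2:**
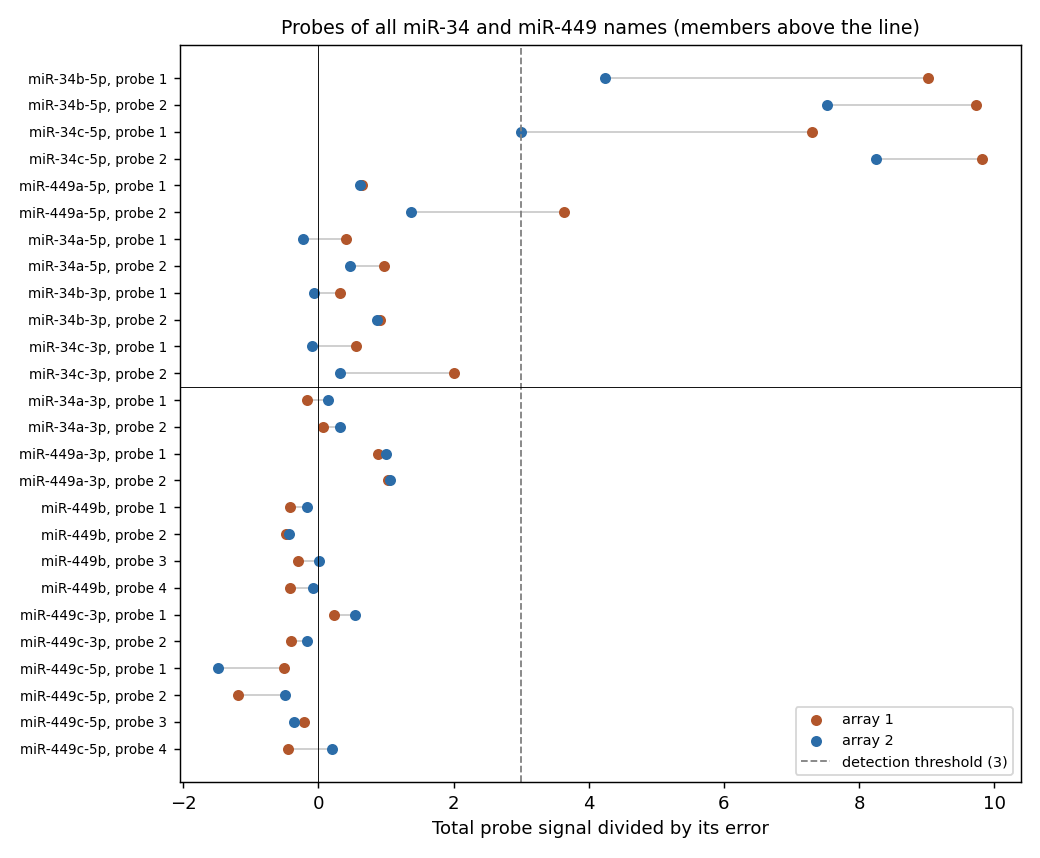
Total probe signal divided by its error (no unit) for the 26 probes of all miR-34 and miR-449 names, array 1 in brown and array 2 in blue, with the detection threshold of 3 dashed. The probes of miR-34b-5p and the second probe of miR-34c-5p lie above 3 on both arrays, at 4.25 to 9.82, the first probe of miR-34c-5p at 7.30 and 2.99, the second probe of miR-449a-5p at 3.63 and 1.37, and all others below it.

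Both detected members were brighter on array 1, by an amount that was alike for their probes. The unscaled log2 difference, array 1 minus array 2, was 2.15 and 1.89 for the probes of miR-34b-5p and 1.78 and 1.85 for those of miR-34c-5p. Averaged over probes it was 2.02 for miR-34b-5p and 1.82 for miR-34c-5p, that is 4.06 and 3.52 times the intensity. The same difference had a median of 0.78 over the 201 miRNAs detected on both arrays (interquartile range 0.19 to 1.66) and lay between 0.06 and 0.17 for the 4 spike-in controls detected on both. mmu-miR-34b-5p stood 27th and miR-34c-5p 43rd of the 201 in this difference. A difference of this size was not particular to them. The 4 stromal miRNAs detected on both arrays, named below, differed by 1.56 to 2.05, with a median of 1.89. The second probe of miR-449a-5p differed by 1.71. Scaling removed 1.71 from all miRNAs and left 0.31 for miR-34b-5p and 0.10 for miR-34c-5p. Amount of RNA, labelling and content of the exosome preparations move together with the array here and cannot be told apart.

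**Figure D3:**
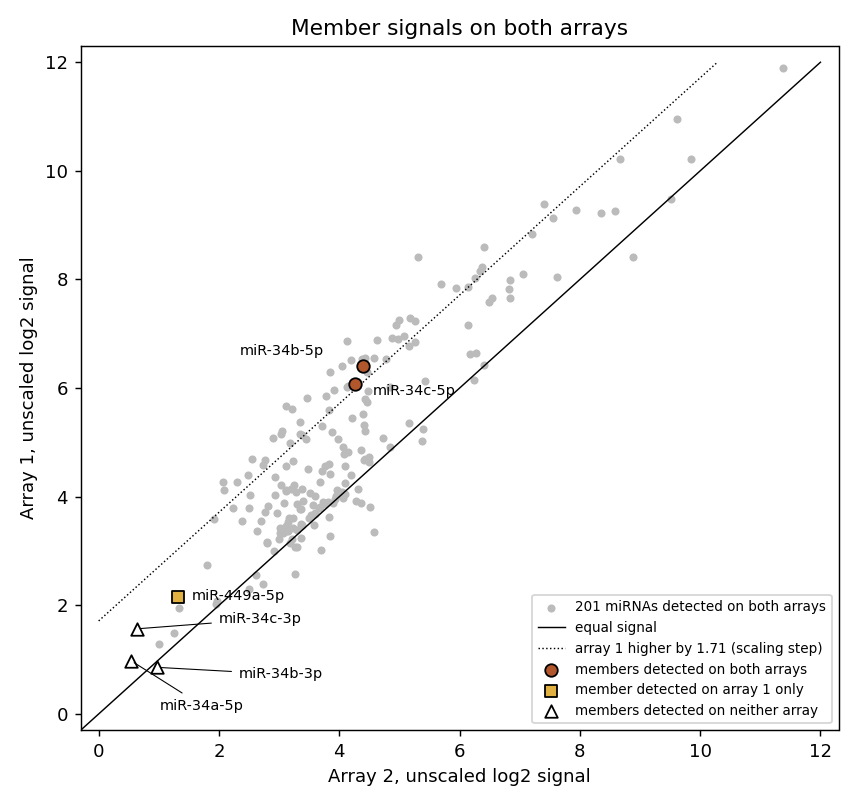
Unscaled log2 signal on array 2 (horizontal) and array 1 (vertical) of the 201 miRNAs detected on both arrays (grey) and of the 6 members, with the line of equal signal and, dotted, the 1.71 that scaling removes. miR-34b-5p (6.41 and 4.39 on arrays 1 and 2) and miR-34c-5p (6.08 and 4.26) lie near the dotted line, and the other 4 members lie at or under 2.16 on array 1.

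The miRNAs nearest to miR-34b-5p by unscaled log2 signals over the 2 arrays were miR-23a-3p (Euclidean distance 0.13), miR-27a-3p (0.14), miR-19b-3p (0.16), let-7e-5p (0.22) and miR-322-5p (0.23). Nearest to miR-34c-5p were miR-32-3p (0.12), miR-6385 (0.14), miR-8090 (0.25), miR-27a-3p (0.29) and miR-188-5p (0.32). miR-27a-3p, from the miR-23a cluster, was in both sets, with 6.29 on array 1 and 4.47 on array 2. These neighbours share an array brightness at 2 points and nothing more is shown by it.

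Other miRNAs linked to p53 were detected in part. Of 16 listed names 15 were on the array by exact name, and 7 of them were detected on both arrays, against 10.7% of all miRNAs; the list was drawn up with earlier results of these data known. With most spots well above background on both arrays the list had 1 of 15, beside 4.68%. Of the listed names, miR-192-5p, miR-194-5p and miR-215-5p, which p53 induces in human cancer cells, were detected on neither array. They stood at 0.06 to 1.16 on array 1 and 0.09 to 0.45 on array 2 (unscaled log2). With 10.7% of all miRNAs detected on both arrays, a set this small without detection does not stand apart. miR-107-3p, reported as a p53 target, was detected on array 1 only (3.60 on array 1 and 1.51 on array 2). Its near relative miR-103-3p was detected on both, at 4.70 and 2.54. Of miR-16-5p, miR-143-3p and miR-145a-5p, whose processing from their primary transcripts p53 enhances after DNA damage in human cells, miR-16-5p was detected, at 5.06 on array 1 and 3.45 on array 2. miR-143-3p and miR-145a-5p were at 0.16 to 0.36 on both arrays. Of the miRNAs known to repress p53 itself, miR-125b-5p (6.84 and 5.27), miR-25-3p (5.31 and 3.72) and miR-30d-5p (3.88 and 3.08) were detected on both arrays and miR-504-5p on neither. miR-15a-5p, the cluster partner of miR-16, was detected on both, as was miR-22-3p, while the epithelial miR-200c-3p was detected on neither. The 7 detected names were brighter on array 1 by 0.80 to 2.16 on the unscaled log2 scale, with a median of 1.60, beside 2.02 and 1.82 for the detected members.

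All RNA came from a single cell line, so lists of miRNAs typical of cell types serve here as background only. They do not show where miR-34b/c or miR-449 are found. Of 7 miRNAs listed for epithelium in general, not for multiciliated cells, 0 were detected on either array. Their unscaled log2 signals were 0.06 to 1.20 on array 1 and 0.02 to 1.43 on array 2. Detection was likewise 0 of 4 for red cells and 0 of 2 for endothelium. Of 6 for stroma 4 were detected on both arrays, and of 5 for leukocytes 1 on array 1 only. The 4 stromal names were miR-199a-3p, miR-199a-5p, miR-199b-5p and miR-214-3p, while miR-143-3p and miR-145a-5p lacked the flag on each array. miR-199a enters by both of its arms and miR-199b is a relative by name, so the 4 are not independent markers. The marker lists were also chosen with earlier results of these data known. Of all miRNAs 10.7% were detected on both arrays and 16.6% on array 1, so a count of 0 in lists this short does not stand apart from the array as a whole. With 1 group there is no comparison with which these could move. Each array had 56430 spots for miRNAs, no spot was saturated, and 312 miRNAs were detected on array 1 and 202 on array 2.

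Total signals listed per miRNA in the scanner files did not always equal the sum of that miRNA's own detected probes. For miR-34b-5p it did on both arrays, at 38.6 on array 1 and 9.97 on array 2. For miR-34c-5p it did on array 1, at 38.9, but on array 2 the listed total was 19.0 and its own detected probe gave 9.04. For miR-449a-5p on array 1 the listed total was 118.5 and its own detected probe gave 2.31. By the listed totals miR-449a-5p would be the brightest of the members on array 1, and by its own probes it was the dimmest of those detected. The authors' deposited value table, on a log2 scale whose centring no source used here states, holds 4.29 on array 1 and 3.93 on array 2 for miR-34b-5p. It holds 4.32 and 3.60 for miR-34c-5p, and -2.19 on array 1 for miR-449a-5p. Its lowest value, -3.32, stands for miR-449a-5p on array 2 and for the other 3 members on both arrays.

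**Figure D4:**
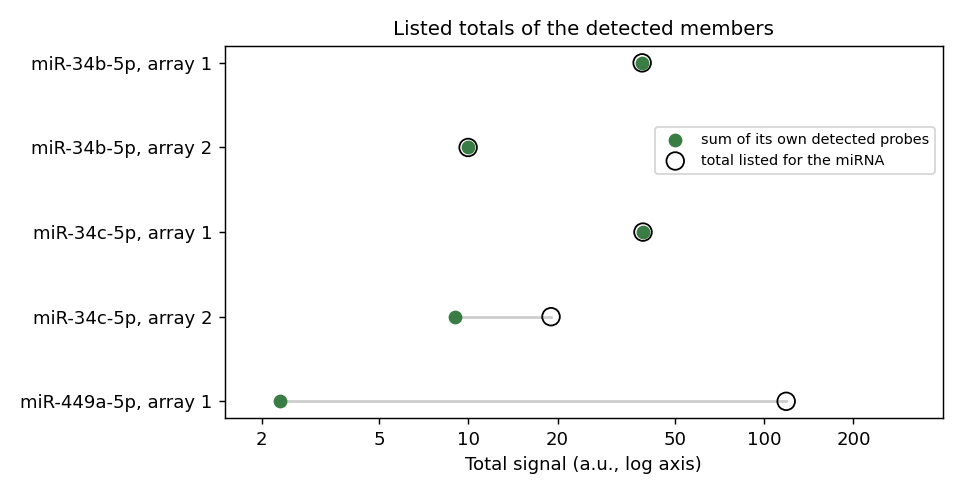
Total signal (arbitrary units, log axis) of each member on each array where it was detected, as listed for the miRNA (open circle) and as the sum of its own detected probes (filled circle). The circles coincide for miR-34b-5p on both arrays and for miR-34c-5p on array 1, and stand apart for miR-34c-5p on array 2 (19.0 and 9.04) and for miR-449a-5p on array 1 (118.5 and 2.31).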

How the data were processed

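Exosome RNA from cisplatin-treated LLC cells was measured on one-colour Agilent mouse miRNA arrays, 1 for each of 2 samples of 1 group, assigned by their labels; slide and scan time were shared by both, per the file headers. Linear spot intensities were deposited as made by Agilent Feature Extraction 10.7.1.1, with background subtracted and a spatial trend removed array by array, per the file headers; the version is from the submitters' processing notes. The flags and totals named above are the scanner files' own, per the file headers. The labels name a kit for labelled cRNA and the headers a miRNA protocol, and which was used is not settled. The value table deposited by the authors is in log2, and no source used here states how it was normalized between arrays; it served as an alternative.

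Members were the names given, on miRNA spots, without the population outliers (1069 spots on array 1 and 1152 on array 2, controls included). Intensities under 1 were set to 1, log2 values averaged over spots and then probes, and each array was shifted to a common 75th percentile (6.29 and 4.58 before the shift) of the 201 doubly detected miRNAs, which changes the SD between arrays and not the mean. Sequences and positions were looked up by name in RefSeq tables on GRCm38.p6, where 9 of the family's 11 names on the array had an entry; miR-34c-5p and miR-449b are named only. The detection flag followed the rule given above for all 1881 miRNAs on both arrays. The text names all members, other miR-34 and miR-449 names, carriers of a member's seed, a list of 16 p53-linked miRNAs, the 5 nearest miRNAs of each detected member, and controls. The members and lists were chosen with earlier results of these data known. Alternatives covered the detection rule, background correction (limma 3.58.1 normexp in R 4.3.3, offset 50), probe summary and scaling, each array alone, and the value table. Calculations used Python 3.11.15 with numpy 2.4.6 and pandas 2.3.3, and were tested on simulated arrays, where 3 of 3 checks passed. The checks looked at bright names, with a common shift between arrays and an added difference for some. They do not cover levels near background.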

Additional observations from a re-analysis of the deposited data

Results flagged for a closer look

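The listed totals of a pair of members stood above the signal of their own probes, in a column that the levels above do not use. miR-449a-5p had a listed total of 118.5 on array 1, 51.2 times the 2.31 of its detected probe. The detected name just before it in alphabetical order, miR-423-5p, had a listed total of 116.2, and the sum of 2.31 and that total came within 1% of 118.5. Whether 116.2 was the signal of miR-423-5p's own probes was not tested. miR-34c-5p had a listed total of 19.0 on array 2, 2.10 times the 9.04 of its detected probe. The name before it was miR-34b-5p with 9.97, and 9.04 plus 9.97 came within 1% of 19.0. In both cases the first probe of the member had a total under 3 times its error (0.64 times for miR-449a-5p and 2.99 times for miR-34c-5p). Which step of the scanner software gives these totals was not tested.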

How the results depend on the processing

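The members detected on both arrays numbered 2 in the report and under a mean over the negative-control limit or a listed total over 6 times its error, 3 with detection on at least 1 array (16.6% of all miRNAs), and 1, miR-34b-5p, when most spots had to be well above background. In that case miR-34c-5p fell just short, with 15 of 30 spots on array 2. The p53-linked list then had 1 of 15 in place of 7, beside 4.68% of all miRNAs in place of 10.7%. Each array alone gave 2 to 3 members and 7 to 8 of the list, beside 10.7% of all miRNAs on array 2 and 16.6% on array 1. The scaled log2 signal of miR-34b-5p was 6.77 with normexp, 6.0 by the brightest probe, 4.29 by the listed total or the sum of its own detected probes (chosen after seeing the data) and 4.11 in the authors' table. That of miR-34c-5p was 6.74, 6.33, 4.77 by the listed total, 4.23 by the sum, 3.96 in the authors' table and 5.04 after quantile normalization. These summaries are on different scales. Each array alone, where no scaling applies, gave unscaled levels of 4.39 to 6.41 for miR-34b-5p and 4.26 to 6.08 for miR-34c-5p. The difference between the arrays kept its direction for both under every alternative run. For miR-34b-5p it was 0.85 with normexp, whose offset draws low signals together, 0.31 after percentile scaling, 0.57 after quantile normalization and 0.36 in the authors' table. For miR-34c-5p it was 0.74, 0.10, 0.50 and 0.73, and 1.03 by the listed total, which on array 2 exceeds its own probe. Other causes were not tested. No paired analysis was possible because there was 1 group. Signals near the negative controls limit what can be said of the undetected members: of their 9 spots over the limit on array 1, 0 stayed over a mean plus 6 SD.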
